A study of Homo sapiens with 136 samples.

Results

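A set of 30 genes of sterol and fatty acid synthesis were followed in 2 human pancreatic ductal adenocarcinoma cell lines, AsPC-1 and PANC-1, treated with inhibitors of RAF, MEK or ERK together with an inhibitor of autophagy. The genes were taken by symbol from the deposited count table, and all 30 of the listed symbols were among its 25435. They comprise 18 enzymes of sterol synthesis (ACAT2, HMGCS1, MVK, PMVK, MVD, IDI1, FDPS, FDFT1, SQLE, LSS, CYP51A1, TM7SF2, MSMO1, NSDHL, HSD17B7, EBP, SC5D and DHCR7), 4 regulators and sterol carriers (INSIG1, SREBF1, SREBF2 and STARD4) and 8 genes of fatty acid synthesis (FASN, ACACA, ACLY, ACSS2, SCD, FADS1, FADS2 and ELOVL6). RNA was measured by PLATE-Seq, in which barcoded libraries are prepared from cells lysed in multi-well plates, after 24 h of growth and 24 h of treatment. In each line, 28 groups of 2 libraries received a kinase inhibitor with either Compound 19, an inhibitor of the lipid kinase Vps34, or hydroxychloroquine, which raises the pH of lysosomes. RAF was inhibited with PLX8394, RAF709, GDC-0879, Dabrafenib or Sorafenib. MEK was inhibited with Binimetinib, Selumetinib, Refametinib, Trametinib or Cobimetinib, and ERK with AZD0364, SCH772984, Ravoxertinib or Ulixertinib. The Vps34 inhibitor alone and hydroxychloroquine alone had 6 libraries each per line. Every library therefore contained an autophagy inhibitor, and there were no untreated cells and no kinase inhibitor by itself. Each drug was dosed where 80% of cells were viable after 48 h of that drug on its own, so doses may differ between drugs.

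Sterols are built from acetyl-CoA through mevalonate, isoprenyl diphosphates, squalene and lanosterol, and the enzymes of this route are encoded by genes that the transcription factor SREBP-2, made from SREBF2, switches on when the endoplasmic reticulum is short of cholesterol. INSIG1 encodes the membrane protein that holds the SREBP precursors in the endoplasmic reticulum when sterols are plentiful, and is itself an SREBP target. Fatty acid synthesis starts from the same acetyl-CoA, which ACLY and ACSS2 supply, and is driven mainly by SREBP-1, made from SREBF1. RAF, MEK and ERK act in turn in a kinase cascade that passes growth signals to the nucleus. Lysosomes release the cholesterol that cells take up, and Vps34 acts on the endosomes and autophagosomes that feed them.

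Libraries held 1419228 to 5172291 counts in AsPC-1 and 1668713 to 5871860 in PANC-1, of which the 30 genes made up 0.0679% to 0.230% and 0.151% to 0.504%. All 30 passed the filter on low counts in both lines. Epithelial KRT8, KRT18, KRT19, KRT7 and EPCAM had counts in every library of both lines, and CDH1 in 68 AsPC-1 and 65 of 68 PANC-1 libraries. Medians in AsPC-1 and PANC-1 were 1301 and 129 CPM for KRT8, 2246 and 310 CPM for KRT18 and 701 and 31.7 CPM for KRT19. For KRT7 they were 8.96 and 11.7 CPM, for EPCAM 678 and 9.17 CPM and for CDH1 36.6 and 1.38 CPM. The immune, endothelial and fibroblast markers read were low or at 0 with a few exceptions. Of the immune genes PTPRC and CD3E had a median of 0 CPM in both lines, CD68 of 3.64 CPM in AsPC-1 and 2.51 CPM in PANC-1, and CD14 of 0.759 and 0 CPM. Endothelial VWF had a median of 0 CPM in both, PECAM1 of 0.106 and 0.216 CPM and CDH5 of 0.199 and 0.327 CPM. Of the fibroblast genes LUM had a median of 116 CPM in AsPC-1 and 0 CPM in PANC-1 and COL1A1 of 1.51 and 65.8 CPM, while COL3A1 (0 and 3.10 CPM), COL1A2 (0 in both) and DCN (0.362 and 0 CPM) were low. Levels are given as CPM (a gene's count scaled to a fixed library total) and show relative abundance within a library, so that fewer cells and less RNA per cell cannot be told apart. Fold changes are log2 values with their standard error (± SE) from an edgeR quasi-likelihood fit over all libraries of a line. A gene is called where its adjusted p is under 0.05. Most genes with library values below were chosen for a small adjusted p, which favours groups that do not overlap. The share of all genes whose groups do not overlap is not given, so such statements describe the named genes only. Nothing in the labels says that libraries came from separate cultures, so p-values measure the spread between these libraries, which may be technical.

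Promoter sequences of 250 bases before to 50 bases after the start were found for 26 of the 30 genes in the set of RefSeq promoters used (GRCh38.p14). ACAT2, FASN, FDFT1 and SQLE were not matched in that set. Only 1 start per gene was taken, which for some genes, such as IDI1 and ACLY, lies away from the gene's start in GENCODE v29. They were searched on both strands for CCAAT, the box bound by NF-Y, a partner of the SREBPs, for TCACNCCAC, the core of the sterol regulatory element, and for CACGTG, the E-box. None of these motifs overlaps another in the promoters shown. CCAAT was found in 12 of 15 promoters of sterol enzymes (80%), in 3 of 4 of the regulators and carriers and in 3 of 7 of the fatty acid genes (42.9%), against 9747 of 27305 promoters of all genes (35.7%). TCACNCCAC stood in 1 of the 26, that of SREBF2 itself, 133 bases before the start, against 1.15% of all promoters. CACGTG stood in 3 of the 26 (11.5%), those of INSIG1, SC5D and LSS, against 7.44% of all promoters. A match describes these letters and is no evidence of binding. The promoters of 4 genes on which the results below turn are shown, with CCAAT, TCACNCCAC and CACGTG matches on either strand in capitals. They are MSMO1 (chr4:165327419-165327718, plus strand), a sterol enzyme called in both lines for the autophagy inhibitors and for MEK and ERK inhibitors, INSIG1 (chr7:155297628-155297927, plus strand), SREBF2 (chr22:41832855-41833154, plus strand) and SCD (chr10:100346983-100347282, plus strand), called with 13 of 14 drugs in AsPC-1.
MSMO1: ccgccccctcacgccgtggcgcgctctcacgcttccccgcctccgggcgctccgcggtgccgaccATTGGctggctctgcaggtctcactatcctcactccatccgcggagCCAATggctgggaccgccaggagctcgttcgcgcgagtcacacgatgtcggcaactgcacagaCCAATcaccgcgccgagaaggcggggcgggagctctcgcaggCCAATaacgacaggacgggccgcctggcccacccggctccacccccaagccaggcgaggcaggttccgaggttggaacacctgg
INSIG1: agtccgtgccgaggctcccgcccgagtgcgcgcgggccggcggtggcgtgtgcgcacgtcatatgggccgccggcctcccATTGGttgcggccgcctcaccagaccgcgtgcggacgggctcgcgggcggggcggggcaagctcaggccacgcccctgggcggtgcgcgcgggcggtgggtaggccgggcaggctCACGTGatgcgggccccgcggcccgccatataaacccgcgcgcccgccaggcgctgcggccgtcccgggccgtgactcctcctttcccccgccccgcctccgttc
SREBF2: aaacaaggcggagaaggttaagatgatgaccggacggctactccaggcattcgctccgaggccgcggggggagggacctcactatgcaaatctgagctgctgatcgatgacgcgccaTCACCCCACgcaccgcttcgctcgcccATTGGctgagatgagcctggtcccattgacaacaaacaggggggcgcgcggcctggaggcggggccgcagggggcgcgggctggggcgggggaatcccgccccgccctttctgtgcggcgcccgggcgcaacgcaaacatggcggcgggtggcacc
SCD: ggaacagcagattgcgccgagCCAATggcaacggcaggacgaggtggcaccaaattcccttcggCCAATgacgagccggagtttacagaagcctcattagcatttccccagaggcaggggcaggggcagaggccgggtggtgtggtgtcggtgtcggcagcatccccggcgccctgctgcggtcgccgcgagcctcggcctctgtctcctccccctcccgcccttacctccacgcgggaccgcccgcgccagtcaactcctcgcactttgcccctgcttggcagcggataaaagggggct

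With no kinase inhibitor present, the Vps34 inhibitor gave lower sterol and fatty acid genes than hydroxychloroquine did in PANC-1. Of the 18 sterol enzymes 11 were lower and none was higher, in a comparison in which 1.18% of 12627 genes were lower and 1.31% higher. Their median log2 fold change was -0.65, against 0.00 for all genes tested. MSMO1, the sterol C4-methyl oxidase (chr4:165327623-165343160), had 173 to 210 CPM with the Vps34 inhibitor (median 191), against 305 to 416 CPM with hydroxychloroquine (median 367). ACAT2, which joins 2 acetyl-CoA molecules at the entry to the pathway (chr6:159760328-159779055), had 53.6 to 80.8 CPM (median 63.1) with the Vps34 inhibitor, against 105 to 153 CPM (median 136.2) with hydroxychloroquine. FDFT1, squalene synthase, had 48.4 to 59.9 CPM (median 54.4) with the Vps34 inhibitor and 78.2 to 111 CPM (median 90.5) with hydroxychloroquine. In all 3 genes the highest library with the Vps34 inhibitor lay below the lowest with hydroxychloroquine. The fold changes were -0.92 ± 0.10 for MSMO1 (adjusted p = 9.9e-09), -1.09 ± 0.13 for ACAT2 (5.6e-08) and -0.80 ± 0.11 for FDFT1 (1.1e-06). The other 8 that fell span the route from HMGCS1 (-0.76 ± 0.17) through IDI1, FDPS and LSS to CYP51A1, NSDHL, HSD17B7 and EBP, at -0.41 to -0.76. Leaving out 1 alone library changed the call of LSS alone (adjusted p 0.0576 to 0.0628 without hydroxychloroquine replicate 3 or 6, or Vps34 inhibitor replicate 1 or 2). Without the plate as a block LSS (0.0895) and CYP51A1 (0.0592) were not called, and with the drugs of a class as replicates LSS (0.0757), IDI1 (0.0621) and NSDHL (0.0866) were not.

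INSIG1 had 47.5 to 69.4 CPM with the Vps34 inhibitor alone in PANC-1 (median 55.6), against 101 to 235 CPM with hydroxychloroquine alone (median 114). Its fold change was -1.27 ± 0.15 (adjusted p = 1.6e-07). STARD4, a carrier that moves cholesterol between membranes, fell as well (-1.09 ± 0.25), and SREBF1 (-0.34 ± 0.20) and SREBF2 (-0.47 ± 0.26) were not called. Of the 8 fatty acid genes 3 were lower and none higher, with a median of -0.35. FASN, the fatty acid synthase (chr17:82078333-82098332), had 101 to 130 CPM with the Vps34 inhibitor (median 115), against 179 to 231 CPM with hydroxychloroquine (median 210). SCD, which puts a double bond into saturated fatty acids (chr10:100347124-100364834), had 210 to 307 CPM with the Vps34 inhibitor (median 270), against 365 to 411 CPM with hydroxychloroquine (median 386). Neither gene's groups overlapped. Their fold changes were -0.83 ± 0.12 (adjusted p = 1.5e-05) and -0.54 ± 0.11 (0.0016), and FADS1, the delta-5 desaturase of polyunsaturated fatty acids, fell by 0.43 ± 0.10 on the log2 scale. The FADS1 call was lost without the plate as a block (0.205), and with the drugs of a class as replicates FADS1 (0.15) and SCD (0.202) were not called. FADS1 lies beside FADS2 and overlaps it in the annotation, so that reads of the pair may be shared. FADS2 also overlaps FEN1 on its own strand.

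In AsPC-1 the same comparison called fewer of these genes. Of the sterol enzymes 2 were lower and none higher, where 2.72% of 12761 genes were lower and 3.21% higher, and the median of the 18 was -0.31 against 0.01 for all genes. MSMO1 had 115 to 130 CPM with the Vps34 inhibitor (median 120), against 135 to 250 CPM with hydroxychloroquine (median 181). CYP51A1, the lanosterol demethylase, had 88.6 to 131 CPM (median 107) with the Vps34 inhibitor, against 138 to 194 CPM (median 153) with hydroxychloroquine. HMGCS1, which makes HMG-CoA, had 4.77 to 8.30 CPM (median 5.88) with the Vps34 inhibitor and 10.3 to 14.1 CPM (median 12) with hydroxychloroquine. The groups did not overlap in any of the 3, of which HMGCS1 was added after its values were seen. MSMO1 (-0.54 ± 0.11, adjusted p = 0.0007) and CYP51A1 (-0.49 ± 0.13, 0.012) passed the test, and HMGCS1 did not (-0.88 ± 0.29, 0.056). CYP51A1 no longer passed without hydroxychloroquine replicate 5 (0.0521). INSIG1 had 25.2 to 48.3 CPM with the Vps34 inhibitor (median 38.7), against 59.0 to 95.0 CPM with hydroxychloroquine (median 63.0), again without overlap (-0.88 ± 0.22, adjusted p = 0.01). Among the fatty acid genes FADS2, the delta-6 desaturase, had 2 to 6.18 CPM with the Vps34 inhibitor (median 5.08), against 6.71 to 20.4 CPM with hydroxychloroquine (median 12.6), and fell (-1.42 ± 0.29, adjusted p = 0.00085). SCD had 110 to 205 CPM with the Vps34 inhibitor, against 172 to 274 CPM with hydroxychloroquine. The groups overlapped and SCD was not called (-0.37 ± 0.12, 0.055). Protein-coding genes of the mitochondrial genome made up 28.7 ± 0.796% of AsPC-1 counts with the Vps34 inhibitor alone and 25.2 ± 1.45% with hydroxychloroquine alone (SD, n = 6 each), and 20.2 ± 1.51% and 19.7 ± 1.22% in PANC-1. Its ribosomal RNA genes went the other way in AsPC-1, at 2.92 ± 0.261% with the Vps34 inhibitor and 5.13 ± 0.792% with hydroxychloroquine, and were at 2.72 ± 0.502% and 2.68 ± 0.363% in PANC-1. Their part in the result was not tested. With the drugs of a class as replicates MSMO1 (adjusted p = 0.184), INSIG1 (0.0922) and CYP51A1 (0.0585) were not called in AsPC-1. The plot of levels with an autophagy inhibitor alone shows each of these libraries.

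**Figure D1:**
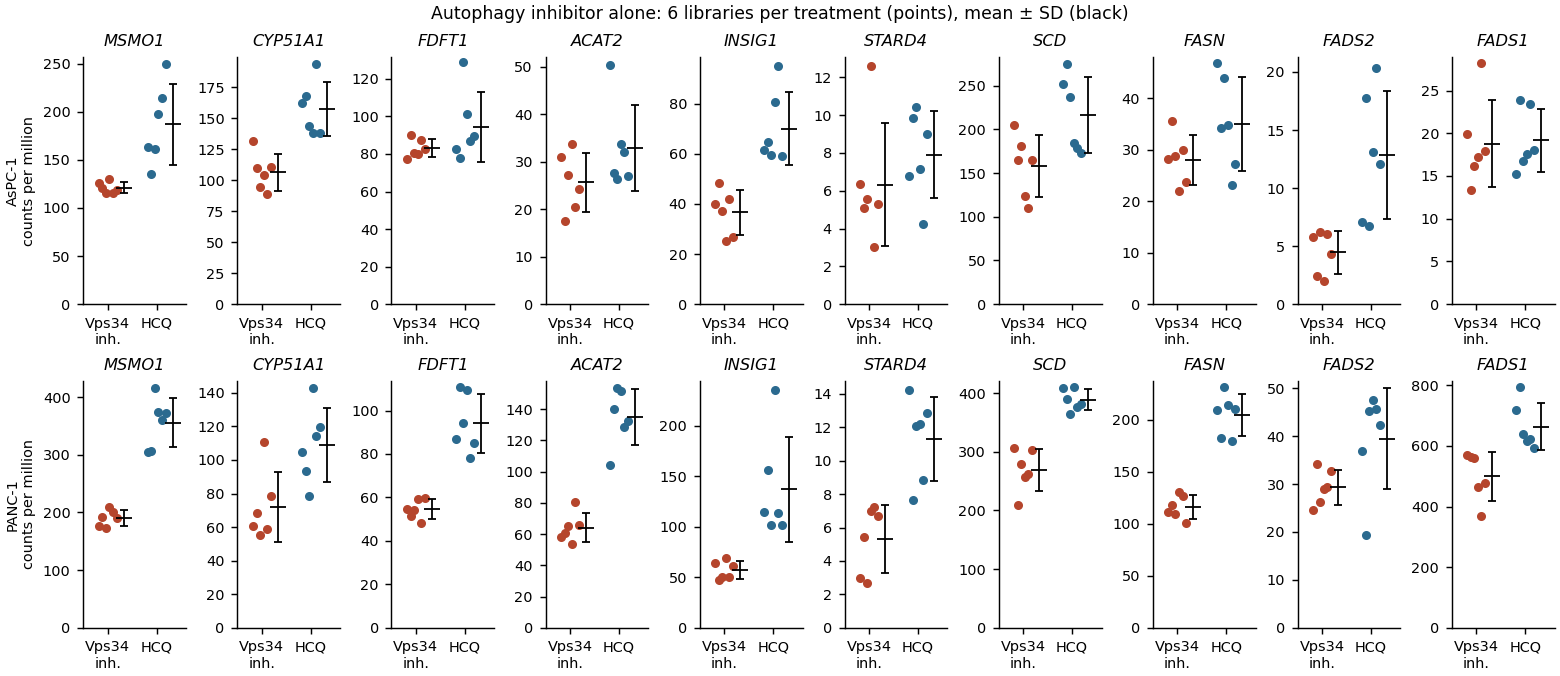
Level in CPM (vertical axis, from 0) of 10 genes in each library of the Vps34 inhibitor alone (red, left) and hydroxychloroquine alone (blue, right), AsPC-1 above and PANC-1 below. Points are the 6 libraries per treatment and black marks the mean ± SD. In PANC-1 the red points of MSMO1, FDFT1, ACAT2, INSIG1, SCD and FASN all lie below the blue ones, and in AsPC-1 those of MSMO1, CYP51A1, INSIG1 and FADS2 do.

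The difference between the autophagy inhibitors was also measured under MEK or ERK inhibitors, in 18 libraries with the Vps34 inhibitor and 18 with hydroxychloroquine per line, none of which is among the alone libraries. In PANC-1 15 sterol enzymes, 3 of the 4 regulators and carriers and 5 fatty acid genes were lower with the Vps34 inhibitor and none was higher, where 7.16% of genes were lower and 6.33% higher. The median of the 18 enzymes was -0.54, and TM7SF2 (-0.07 ± 0.06), PMVK (-0.19 ± 0.10) and MVK (-0.45 ± 0.16) were the 3 that did not pass. With MEK inhibitors MSMO1 had 157 to 394 CPM in libraries with the Vps34 inhibitor (median 244) and 391 to 571 CPM in those with hydroxychloroquine (median 428). With ERK inhibitors it had 137 to 286 CPM (median 241) and 300 to 496 CPM (median 461). The ERK groups did not overlap, and the MEK groups did by 1 library, the Vps34 inhibitor with Cobimetinib at 394 CPM. ACAT2 under ERK inhibitors had 36.3 to 140 CPM with the Vps34 inhibitor (median 112), against 131 to 338 CPM with hydroxychloroquine (median 230). NSDHL, a decarboxylase of the C4-demethylation complex, had 49.4 to 89.1 CPM with the Vps34 inhibitor under MEK inhibitors (median 69.4), against 92.2 to 105 CPM with hydroxychloroquine (median 97.3). Fold changes were -0.94 ± 0.06 for MSMO1 (adjusted p = 1.3e-17), -1.05 ± 0.07 for ACAT2 (1.4e-15) and -0.61 ± 0.06 for NSDHL (6.1e-12). INSIG1 was lower as well (-0.49 ± 0.09). TCP1, whose annotation overlaps ACAT2, was lower (-0.21 ± 0.05, adjusted p = 0.0064). SOD2, which also overlaps ACAT2, was higher (0.24 ± 0.09, adjusted p = 0.049), so that the ACAT2 value is uncertain. SCD under ERK inhibitors had 398 to 559 CPM with the Vps34 inhibitor (median 490) and 629 to 1048 CPM with hydroxychloroquine (median 812), with no overlap, and its fold change over both classes was -0.57 ± 0.06 (adjusted p = 1.2e-09). FASN (-0.66 ± 0.07), FADS1 (-0.49 ± 0.06), FADS2 (-0.86 ± 0.11) and ACLY, the citrate lyase (-0.32 ± 0.07), were lower too, and ELOVL6 (0.06 ± 0.18) was not called. FEN1, whose annotation overlaps FADS2, was lower here as well (-0.55 ± 0.09, adjusted p = 1.4e-05), so that the FADS2 value is uncertain. Of the regulators, the call of SREBF2 was lost without Binimetinib, Ravoxertinib or Refametinib (0.0617 to 0.0754) and that of STARD4 without Trametinib.

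In AsPC-1 8 sterol enzymes, INSIG1 and 3 fatty acid genes were lower with the Vps34 inhibitor under MEK or ERK inhibitors, where 12.8% of genes were lower. The median of the 18 enzymes was -0.35. TM7SF2, a sterol C14-reductase, was the only member that was higher (0.41 ± 0.13, adjusted p = 0.02), in a comparison in which 10.6% of genes were higher. That call was lost without Ravoxertinib, SCH772984, Selumetinib or Ulixertinib (0.0528 to 0.0819). Under MEK inhibitors MSMO1 had 173 to 262 CPM with the Vps34 inhibitor (median 199) and 251 to 397 CPM with hydroxychloroquine (median 341), overlapping at the edges. IDI1, the isopentenyl diphosphate isomerase, had 31.6 to 45.2 CPM (median 36.5) with the Vps34 inhibitor and 47.5 to 80.4 CPM (median 61.1) with hydroxychloroquine, without overlap. NSDHL under ERK inhibitors had 16.9 to 33.8 CPM with the Vps34 inhibitor (median 27.6), against 39.0 to 51.1 CPM with hydroxychloroquine (median 45.5), again without overlap. Their fold changes were -0.45 ± 0.06 for MSMO1 (adjusted p = 8.6e-08), -0.59 ± 0.10 for IDI1 (3.8e-06) and -0.56 ± 0.09 for NSDHL (3.0e-06). FDPS, SQLE, HMGCS1, LSS and HSD17B7 fell by 0.40 to 0.64 on the log2 scale, and FDFT1 (-0.14 ± 0.06), CYP51A1 (-0.10 ± 0.07) and ACAT2 (-0.13 ± 0.10) were not called. INSIG1 had 88.6 to 169 CPM with the Vps34 inhibitor under ERK inhibitors (median 109), against 157 to 275 CPM with hydroxychloroquine (median 214), and fell by 0.89 ± 0.13. FASN had 5.49 to 34.1 CPM with the Vps34 inhibitor under ERK inhibitors (median 20.9), against 26.6 to 55.5 CPM with hydroxychloroquine (median 40.8), and fell (-0.72 ± 0.12, adjusted p = 2.4e-06). FADS2 (-0.63 ± 0.17) and ACLY (-0.36 ± 0.11) fell as well, and SCD, at -0.08 ± 0.07, was not called. The ACLY call was lost without Binimetinib (0.0689) or Refametinib (0.0617), and that of HSD17B7 without AZD0364 (0.0913) or Trametinib (0.0504). The LSS call was lost without Cobimetinib (0.14) and, like that of FADS2, with the drugs of a class as replicates (0.0763 and 0.0958). FEN1 was not called here (-0.04 ± 0.16).

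MEK and ERK inhibitors were then set against the alone libraries, with each autophagy inhibitor weighted equally. All drugs share these alone libraries. In AsPC-1 most of the sterol enzymes were higher with both classes. With MEK inhibitors 12 of 18 were higher and none lower, where 12.9% of genes were higher and 16.1% lower, and their median was 0.49 against -0.05 for all genes. With ERK inhibitors 14 of 18 were higher and none lower, where 13.7% of genes were higher and 17.4% lower, and their median was 0.60 against -0.06. Leaving out single drugs or alone libraries ended the MEK calls of FDPS, MVD and SQLE (adjusted p 0.0501 to 0.0938) and the ERK calls of FDPS, HMGCS1, NSDHL and SQLE (0.0508 to 0.168). MSMO1 had 173 to 262 CPM with MEK inhibitors and the Vps34 inhibitor, against 115 to 130 CPM with the Vps34 inhibitor alone. It had 251 to 397 CPM with MEK inhibitors and hydroxychloroquine, against 135 to 250 CPM with hydroxychloroquine alone. All 20 libraries with a MEK inhibitor and 15 of 16 with an ERK inhibitor lay above every alone library of the same autophagy inhibitor. Its fold change was 0.83 ± 0.07 with MEK inhibitors (adjusted p = 5.2e-15) and 0.91 ± 0.07 with ERK inhibitors (7.1e-16). TM7SF2 had 15.0 to 31.4 CPM with MEK inhibitors and the Vps34 inhibitor (median 21.8), against 2.01 to 12.8 CPM with the Vps34 inhibitor alone (median 7.72). With hydroxychloroquine it had 14 to 26.3 CPM (median 23.2) with MEK inhibitors, against 6.57 to 11.2 CPM alone (median 9.91). None of the 36 libraries with a MEK or ERK inhibitor overlapped the alone libraries of the same autophagy inhibitor, and the fold changes were 1.47 ± 0.16 (MEK) and 1.34 ± 0.17 (ERK). TM7SF2 shares a stretch of its strand with VPS51, which was not called with MEK inhibitors (-0.21 ± 0.18).

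SC5D, the lathosterol oxidase, had 83.1 to 139 CPM with ERK inhibitors and the Vps34 inhibitor (median 119), against 47.7 to 73.8 CPM with the Vps34 inhibitor alone (median 55.6). With hydroxychloroquine it had 86.0 to 140 CPM (median 124) with ERK inhibitors, against 67.6 to 81.5 CPM alone (median 77.1). It did not overlap in any of the 16 libraries with an ERK inhibitor and rose by 0.88 ± 0.09 (adjusted p = 5.6e-12), and by 0.71 ± 0.09 with MEK inhibitors. FDFT1 rose by 0.66 ± 0.07 with ERK inhibitors and by 0.45 ± 0.07 with MEK inhibitors. ACAT2 rose by 0.93 ± 0.12 and by 0.75 ± 0.11. It overlaps TCP1 and SOD2 on the other strand, and whether counting used the strand is not given in the sources used here. TCP1 went the other way with MEK (-0.41 ± 0.06) and ERK inhibitors (-0.40 ± 0.06). SOD2 rose with both (MEK 0.25 ± 0.09, adjusted p = 0.021, and ERK 0.29 ± 0.09, 0.0087), so that the ACAT2 value is uncertain. CYP51A1 (0.13 ± 0.08 with MEK inhibitors), EBP (0.02 ± 0.11), PMVK (0.15 ± 0.17) and MVK (-0.73 ± 0.42) were called with neither class. LSS and NSDHL were called with ERK and not with MEK inhibitors, and ERK set directly against MEK inhibitors did not pass for either (0.46 ± 0.19, adjusted p = 0.33, and 0.15 ± 0.09, 0.62).

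INSIG1 was higher with both classes in AsPC-1. It had 68.6 to 195 CPM with MEK inhibitors and the Vps34 inhibitor (median 95.7), against 25.2 to 48.3 CPM with the Vps34 inhibitor alone. With hydroxychloroquine it had 145 to 374 CPM (median 207) with MEK inhibitors, against 59.0 to 95.0 CPM alone. All 36 libraries with a MEK or ERK inhibitor lay above every alone library of the same autophagy inhibitor, and the fold changes were 1.54 ± 0.15 (adjusted p = 3.0e-11) and 1.68 ± 0.15 (6.5e-12). SREBF1 (0.61 ± 0.13 and 0.74 ± 0.13) and SREBF2 (0.65 ± 0.21 and 0.64 ± 0.22) were higher with MEK and with ERK inhibitors, and STARD4 with ERK inhibitors (0.83 ± 0.22). The ERK call of SREBF2 was lost without SCH772984 (0.0821) and without the plate as a block (0.0753). SREBF2 had 2.42 to 10.8 CPM with the Vps34 inhibitor alone and 1.74 to 11.3 CPM with hydroxychloroquine alone. The fatty acid genes moved little apart from SCD. Their median was -0.02 with MEK inhibitors and 0.06 with ERK inhibitors. SCD had 208 to 340 CPM with MEK inhibitors and the Vps34 inhibitor (median 279), against 110 to 205 CPM with the Vps34 inhibitor alone (median 165). With ERK inhibitors it had 324 to 527 CPM with the Vps34 inhibitor (median 376) and 352 to 619 CPM with hydroxychloroquine (median 414), against 172 to 274 CPM with hydroxychloroquine alone (median 211). All 16 libraries with an ERK inhibitor and 18 of 20 with a MEK inhibitor lay above the alone libraries, and the fold changes were 1.21 ± 0.08 (ERK, adjusted p = 1.3e-18) and 0.73 ± 0.08 (MEK, 2.3e-11). ACSS2, which makes acetyl-CoA from acetate, was called with ERK inhibitors (0.34 ± 0.13, 0.043). This call was lost without AZD0364 (0.425), without SCH772984 (0.142) or without Vps34 inhibitor alone replicate 1, 2 or 4 or hydroxychloroquine alone replicate 2 or 5 (0.0593 to 0.0904). FASN (-0.11 ± 0.13 with MEK inhibitors), ACACA (-0.03 ± 0.15), ACLY (-0.03 ± 0.12) and FADS1 (-0.02 ± 0.13) were not called.

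In PANC-1 sterol enzymes were called with both classes as well. With MEK inhibitors 9 of 18 sterol enzymes were higher and none lower, where 7.9% of genes were higher and 10.6% lower (median 0.32 against -0.02 for all genes). With ERK inhibitors 14 were higher and none lower, where 5.45% of genes were higher and 8.68% lower (median 0.35 against -0.02). The count of 14 fell to 8 when AZD0364 was left out, and the ERK calls of HMGCS1, SQLE, NSDHL, EBP and SC5D were each lost without 1 or more single drugs (0.0725 to 0.199). The MEK calls of MVD, LSS and EBP were likewise (adjusted p up to 0.101). TM7SF2 had 42.4 to 106 CPM with MEK inhibitors and the Vps34 inhibitor (median 66.1), against 30.8 to 43.4 CPM with the Vps34 inhibitor alone (median 38.9). With hydroxychloroquine it had 52.2 to 94.3 CPM (median 63.1) with MEK inhibitors, against 32.8 to 50.2 CPM alone (median 37.9). Of 20 libraries 19 lay above every alone library of the same autophagy inhibitor (0.75 ± 0.07, adjusted p = 1.7e-12). ACAT2 had 36.3 to 140 CPM with ERK inhibitors and the Vps34 inhibitor (median 112), against 53.6 to 80.8 CPM alone, and 131 to 338 CPM with hydroxychloroquine (median 230), against 105 to 153 CPM alone. It overlapped, with 6 of 8 libraries above the alone libraries and 2 below them with the Vps34 inhibitor, both of Ulixertinib, and 6 of 8 above with hydroxychloroquine (0.59 ± 0.08, adjusted p = 4.7e-07). Of the genes that overlap ACAT2, SOD2 rose with ERK inhibitors as well (0.52 ± 0.10, adjusted p = 0.00011), and TCP1 was not called (0.11 ± 0.06). FDFT1 (0.36 ± 0.07 and 0.34 ± 0.07) and IDI1 (0.43 ± 0.08 and 0.47 ± 0.09) were higher with MEK and with ERK inhibitors. MSMO1 was higher by 0.30 ± 0.06 and 0.21 ± 0.07, and its call with ERK inhibitors was lost without AZD0364 (0.107), Ravoxertinib (0.065) or SCH772984 (0.253). PMVK, which phosphorylates mevalonate phosphate, and CYP51A1 were called with neither class. INSIG1 was higher by 0.27 ± 0.10 with MEK inhibitors (adjusted p = 0.048), a call lost without Trametinib (0.211), without Selumetinib (0.0836), or without hydroxychloroquine alone replicate 1, 3, 5 or 6 or Vps34 inhibitor alone replicate 2, 3, 5 or 6 (0.0536 to 0.103). It was higher by 0.36 ± 0.10 with ERK inhibitors, a call lost without SCH772984 (0.128). Taken apart by autophagy inhibitor, INSIG1 was higher with the Vps34 inhibitor (MEK 0.68 ± 0.14, adjusted p = 0.00053, and ERK 0.73 ± 0.15, 0.0005) and was not called with hydroxychloroquine (MEK -0.15 ± 0.13, 0.597, and ERK 0.00 ± 0.14, 0.999). The difference between the autophagy inhibitors did not pass edgeR's test (adjusted p = 0.326 for MEK and 0.432 for ERK inhibitors).

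Of the 8 fatty acid genes in PANC-1, 4 were higher with MEK inhibitors and 5 with ERK inhibitors, and 1, ELOVL6, was lower with both. Of all genes 7.9% were higher and 10.6% lower with MEK inhibitors, and 5.45% and 8.68% with ERK inhibitors. A count of 1 lower gene in 8 is close to these shares. SCD in PANC-1 had 277 to 682 CPM with MEK inhibitors and the Vps34 inhibitor (median 525), against 210 to 307 CPM with the Vps34 inhibitor alone. With hydroxychloroquine it had 485 to 964 CPM (median 590) with MEK inhibitors, against 365 to 411 CPM alone. Of 20 libraries with a MEK inhibitor 19 lay above the alone libraries, as did all 16 with an ERK inhibitor, and the fold changes were 0.77 ± 0.07 (adjusted p = 2.1e-12) and 0.91 ± 0.07 (3.7e-14). FADS1 had 493 to 1003 CPM with MEK inhibitors and the Vps34 inhibitor (median 674), against 367 to 571 CPM alone (median 518), and 636 to 1302 CPM with hydroxychloroquine (median 844), against 593 to 794 CPM alone (median 631). It overlapped in 6 of 20 libraries and was higher by 0.40 ± 0.06 (1.9e-06). FADS2 (0.67 ± 0.13) and FASN (0.29 ± 0.08) were higher with MEK inhibitors, and with ERK inhibitors FASN (0.42 ± 0.08), FADS2 (0.49 ± 0.13), FADS1 (0.24 ± 0.06) and ACACA, the acetyl-CoA carboxylase (0.36 ± 0.09), were. The ERK call of FADS1 was lost without SCH772984 (0.166), without the plate as a block (0.17) and with the drugs of the class as replicates (0.0653), and that of FADS2 without Ravoxertinib (0.0739). FEN1 went the other way with MEK (-0.64 ± 0.10) and ERK inhibitors (-0.38 ± 0.10). ELOVL6, which lengthens saturated and monounsaturated fatty acids, was the only member lower with either class. It had 2.54 to 20.9 CPM with MEK inhibitors and hydroxychloroquine (median 5.35), against 7.77 to 14.9 CPM with hydroxychloroquine alone (median 10.3), with 8 of 10 libraries below all of those. Its fold changes were -0.76 ± 0.19 (MEK, adjusted p = 0.0028) and -0.73 ± 0.20 (ERK, 0.0073, and 0.0739 without AZD0364).

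Direct comparison of ERK with MEK inhibitors, which needs no alone library, called SCD in AsPC-1 (0.47 ± 0.07 higher with ERK inhibitors, adjusted p = 4.1e-05) and NSDHL in PANC-1 (0.22 ± 0.06, 0.019), among 0.744% and 2.26% of genes called in either direction. The NSDHL call was lost without AZD0364, Binimetinib, Ravoxertinib or Trametinib (0.0537 to 0.268). The question whether a class acted differently with the 2 autophagy inhibitors was tested as an interaction for RAF, MEK and ERK inhibitors. No member passed edgeR's test in 90 tests per line, of which 11 in AsPC-1 and 13 in PANC-1 had an unadjusted p under 0.05, and DESeq2 called 0 in both lines. Of all genes 0.136% were called in AsPC-1 and 0% in PANC-1.

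RAF inhibitors as a class changed few members. In AsPC-1 TM7SF2 (0.61 ± 0.16, adjusted p = 0.0074), INSIG1 (0.46 ± 0.14, 0.032) and SCD (0.44 ± 0.08, 4.0e-05) were higher, where 3.75% of genes were higher and 4.91% lower. TM7SF2 had 3.52 to 26.8 CPM with RAF inhibitors and the Vps34 inhibitor (median 13.2), against 2.01 to 12.8 CPM alone, and overlapped, as did SCD at 150 to 286 CPM (median 211) against 110 to 205 CPM alone. TM7SF2 was no longer called without GDC-0879 (0.0888) or RAF709 (0.146), and INSIG1 without either of these (0.201 and 0.433) or without hydroxychloroquine alone replicate 1, 2, 3 or 6 or Vps34 inhibitor alone replicate 4 or 6 (0.0516 to 0.0649). In PANC-1 edgeR called none of the 30 (1 with an unadjusted p under 0.05, 0 by DESeq2), where 0.103% of genes were higher and 0.436% lower. Of all genes called there by edgeR 19.1% were higher, and by DESeq2 30.8%.

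The 5 RAF inhibitors differed among themselves. Fold changes of each drug against the other drugs of its class were computed after the data were seen. PLX8394, a RAF inhibitor made to avoid paradoxical activation of ERK, had lower sterol genes in AsPC-1. Against alone 10 sterol enzymes, STARD4 and FADS2 were lower with it, where 0.4% of genes were lower, and the median of the 18 enzymes was -0.73. Against the other RAF inhibitors 12 sterol enzymes, 3 regulators and carriers and 3 fatty acid genes were lower, where 2.55% of genes were lower. MSMO1 had 67.6 and 65.6 CPM with PLX8394 and the Vps34 inhibitor, against 115 to 130 CPM with the Vps34 inhibitor alone. It had 61.2 and 88.9 CPM with PLX8394 and hydroxychloroquine, against 135 to 250 CPM with hydroxychloroquine alone. ACAT2 had 12.7 and 12.5 CPM with the Vps34 inhibitor and 8.03 and 16 CPM with hydroxychloroquine, against 17.6 to 33.8 CPM and 26.5 to 50.4 CPM alone. All 4 libraries of both genes lay below the alone libraries of the same autophagy inhibitor, and the fold changes against alone were -1.07 ± 0.12 (adjusted p = 9.8e-09) and -1.21 ± 0.20 (0.00019). Of the genes that overlap ACAT2, TCP1 was lower with PLX8394 too (-0.40 ± 0.10, adjusted p = 0.031), and SOD2 was not called (-0.02 ± 0.14). FDFT1 fell by 0.66 ± 0.11 (0.00046), SC5D by 0.84 ± 0.15 and IDI1 by 1.06 ± 0.19. DHCR7, the last enzyme before cholesterol, had 9.16 and 20.6 CPM with the Vps34 inhibitor and 13.3 and 8.72 CPM with hydroxychloroquine, and fell by 1.55 ± 0.28. SCD had 150 and 153 CPM with the Vps34 inhibitor and 122 and 149 CPM with hydroxychloroquine. It was not called against alone, and was 0.95 ± 0.13 lower than with the other RAF inhibitors. INSIG1 was 1.39 ± 0.24 lower than with the other RAF inhibitors.

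Under PLX8394 in AsPC-1 the median log2 difference between the Vps34 inhibitor and hydroxychloroquine over the sterol enzymes was -0.07, with no call by edgeR in 2 against 2 libraries (3 of 30 members with an unadjusted p under 0.05). Whether PLX8394 differs in this from alone or from other drugs was not tested. Summed over the 18 enzymes, its libraries held 394 and 412 CPM with the Vps34 inhibitor and 423 and 473 CPM with hydroxychloroquine, against 603 to 680 CPM and 813 to 893 CPM alone. Replicate 1 with the Vps34 inhibitor was the shallowest of the line (1419228 counts), and without replicate 1 or 2 of all combinations the count of 10 lower enzymes fell to 2 or 5. MSMO1 passed in both. In PANC-1 PLX8394 lowered 1 member against alone, MSMO1 (-0.53 ± 0.10, adjusted p = 0.0092), where 0.0475% of genes were lower. Its MSMO1 levels were 127 and 123 CPM with the Vps34 inhibitor and 268 and 257 CPM with hydroxychloroquine, all 4 below the alone libraries, and the call was lost without replicate 1 (0.14) or 2 (0.672). With RAF709 in PANC-1, SCD (0.88 ± 0.10), TM7SF2 (0.65 ± 0.10), ACAT2 (0.53 ± 0.12), SQLE and FADS1 were higher than alone, where 4.05% of genes were. In AsPC-1 RAF709 raised 4 sterol enzymes and GDC-0879 5, among them MSMO1 by 0.58 ± 0.11 and 0.57 ± 0.11, Sorafenib raised MSMO1 (0.52 ± 0.11), and Dabrafenib none (edgeR, 1 with an unadjusted p under 0.05, 0 by DESeq2). SCD was higher with all 4 of these drugs, by 0.47 to 0.89. Of all genes, 6.57% were higher with RAF709, 5.81% with GDC-0879, 0.0862% with Sorafenib and 1.44% with Dabrafenib.

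**Figure D2:**
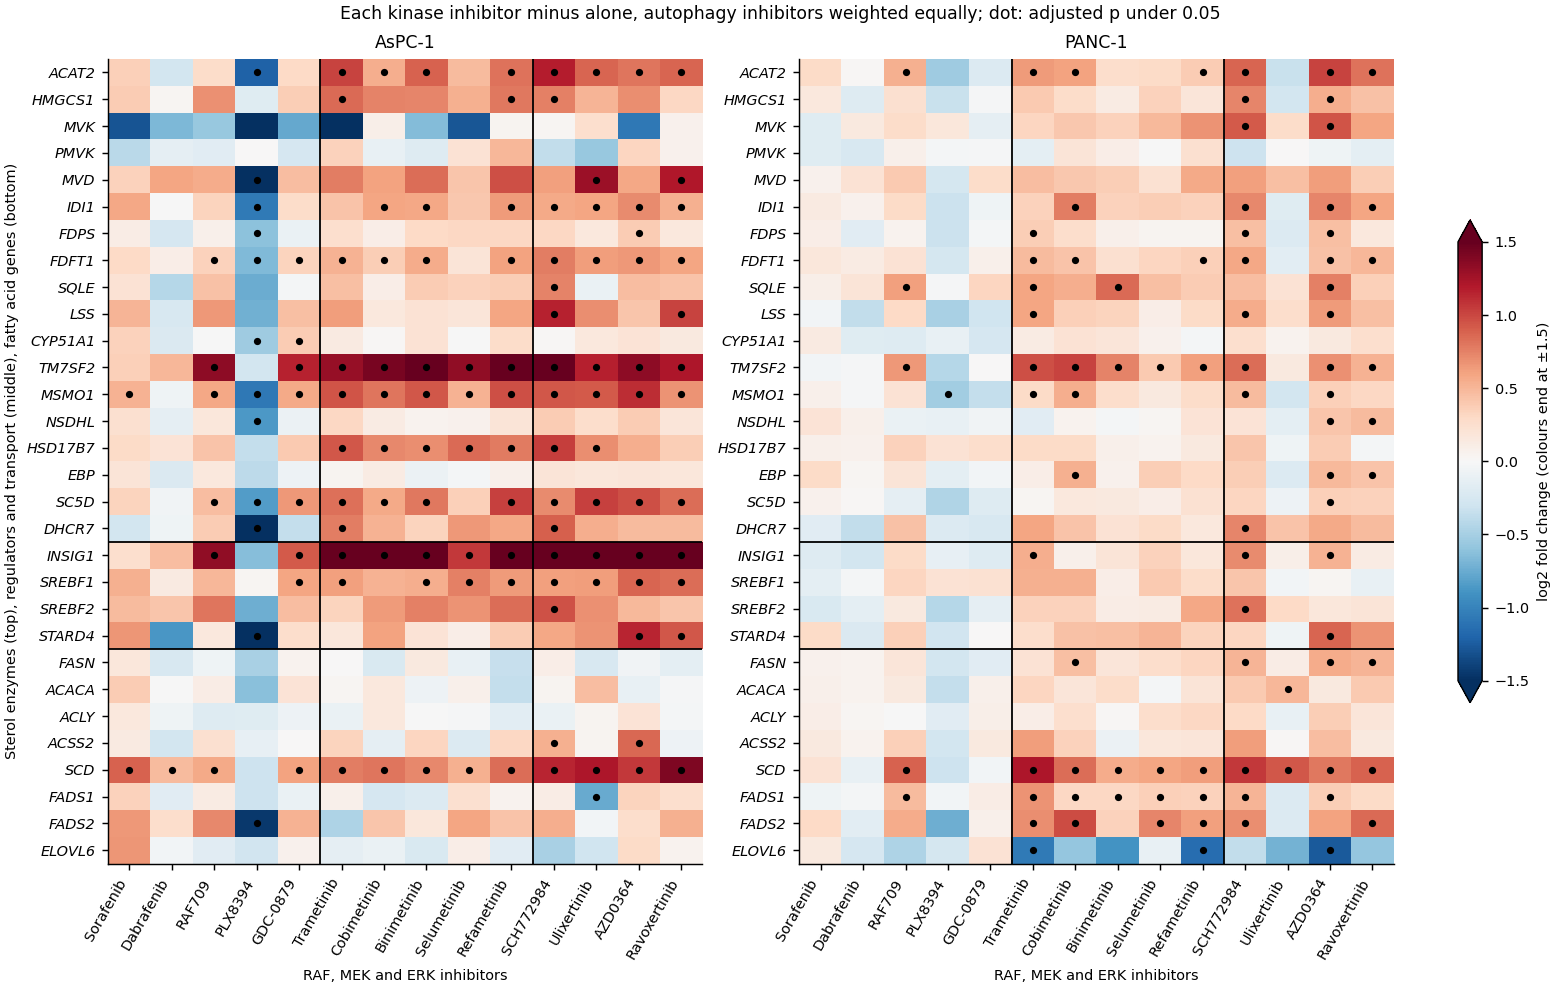
Log2 fold change of each member (lines down) with each kinase inhibitor against alone (columns, RAF, MEK and ERK inhibitors from left to right), AsPC-1 on the left and PANC-1 on the right, with both autophagy inhibitors weighted equally. Red is higher, blue lower, colours end at ±1.5, and dots mark an adjusted p under 0.05. The column of PLX8394 is blue in AsPC-1, and SCD is dotted with 13 of 14 drugs in AsPC-1 and with all MEK and ERK inhibitors in PANC-1.

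Drug by drug, MEK and ERK inhibitors raised 3 to 11 of the 18 sterol enzymes in AsPC-1. SCH772984 raised 11, Trametinib, Refametinib, Ulixertinib and Ravoxertinib 8 each, Cobimetinib, Binimetinib and AZD0364 7 each and Selumetinib 3. Over all 14 drugs, RAF inhibitors included, 6.22% of genes were higher per drug. Of 12761 genes, 1329 were higher with Ulixertinib, 1207 with AZD0364, 1165 with Refametinib, 1082 with Binimetinib and 1078 with SCH772984. With Cobimetinib 1006 were, with Trametinib 992, with Ravoxertinib 948 and with Selumetinib 486. MSMO1, TM7SF2, INSIG1 and SCD were called with all 9 MEK and ERK inhibitors, MSMO1 at 0.52 ± 0.11 with Selumetinib to 1.10 ± 0.10 with AZD0364 and SCD at 0.53 ± 0.12 with Selumetinib to 1.40 ± 0.11 with Ravoxertinib. In PANC-1 the counts were 13 with AZD0364, 10 with SCH772984, 7 with Trametinib and 6 with Cobimetinib and with Ravoxertinib. They were 3 with Refametinib, 2 with Binimetinib and 1 with Selumetinib. Over all 14 drugs in PANC-1 2.6% of genes were higher per drug. Of 12627 genes, 848 were higher with Ulixertinib, 766 with Trametinib, 531 with Cobimetinib, 418 with Binimetinib and 378 with Refametinib. With SCH772984 363 were, with AZD0364 287, with Ravoxertinib 227 and with Selumetinib 209. Each drug was also set against alone within 1 autophagy inhibitor, 2 against 6 libraries. In AsPC-1 100 of 504 pairs of a sterol enzyme and a combination were higher (19.8%) and 7 lower, and 28 of 224 pairs with a fatty acid gene were higher (12.5%), where 3.39% of pairs of all genes were. In PANC-1 51 of 504 (10.1%) and 30 of 224 (13.4%) were higher, where 1.17% of all pairs were. A further 2 sterol enzyme pairs were lower there (0.397%), both of ERK inhibitors with the Vps34 inhibitor, where 1.30% of all pairs were lower. By class in AsPC-1 the share of sterol enzyme pairs that were higher was 33.3% for ERK inhibitors, 23.3% for MEK inhibitors and 5.56% for RAF inhibitors, against 5.05%, 4.08% and 1.38% of pairs of all genes. The 7 lower pairs were all of RAF inhibitors (3.89%), against 1.05% of pairs of all genes. In PANC-1 the shares higher were 17.4% for ERK, 12.8% for MEK and 1.67% for RAF inhibitors, against 1.48%, 1.64% and 0.441% of pairs of all genes.

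Ulixertinib stood apart from the other ERK inhibitors in PANC-1. With both autophagy inhibitors weighted equally, edgeR called no sterol enzyme with it against alone (3 with an unadjusted p under 0.05, 1 called by DESeq2), where 6.72% of genes were higher. Of the 18, 10 were lower than with the other 3 ERK inhibitors, where 4.15% of genes were lower. Summed over the 18 enzymes, its libraries held 947 and 971 CPM with the Vps34 inhibitor, below the 983 to 1126 CPM of that inhibitor alone. With hydroxychloroquine they held 1671 and 1725 CPM, against 1437 to 1692 CPM alone. Whether Ulixertinib acted differently with the 2 autophagy inhibitors was not tested. ACAT2 had 48.5 and 36.3 CPM with Ulixertinib and the Vps34 inhibitor, and 136.4 and 131 CPM with Ulixertinib and hydroxychloroquine. With SCH772984 it had 116 and 106 CPM with the Vps34 inhibitor and 332 and 213 CPM with hydroxychloroquine. With Ravoxertinib it had 111 and 113 CPM with the Vps34 inhibitor and 285 and 228 CPM with hydroxychloroquine. The Ulixertinib libraries lay below those of the other 3 drugs with either autophagy inhibitor, and the difference was -1.24 ± 0.14 (adjusted p = 1.7e-09). MSMO1 (-0.65 ± 0.10), IDI1 (-0.86 ± 0.14), FDFT1 (-0.66 ± 0.11) and FADS1 (-0.60 ± 0.10) were lower too. The 10 became 4 without replicate 1 and 4 without replicate 2. SCD did not follow. It had 398 and 459 CPM with Ulixertinib and the Vps34 inhibitor and 1048 and 810 CPM with Ulixertinib and hydroxychloroquine, against 210 to 307 CPM and 365 to 411 CPM alone, and was higher than alone (0.93 ± 0.10). In AsPC-1 Ulixertinib raised 8 sterol enzymes against alone, where 1329 of 12761 genes were higher. Against the other ERK inhibitors FADS1 was the only member called (-0.99 ± 0.23), where 21 of 12761 genes were higher and 38 lower. The FADS1 call was lost without either replicate, which leaves 1 library per combination.

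Within single drugs the Vps34 inhibitor was set against hydroxychloroquine, 2 against 2 libraries, a comparison added after the data were seen. In PANC-1 the median of the sterol enzymes was -0.45 to -0.78 with 13 of the 14 drugs, and MSMO1 was called lower with all 13, where 0.177% of genes were lower per drug. With Ulixertinib 7 sterol enzymes and 3 fatty acid genes were lower, where 0.879% of genes were. Cobimetinib was the exception, with a median of 0.13 and no member called by edgeR (2 of 30 with an unadjusted p under 0.05). MSMO1 had 316 and 394 CPM with Cobimetinib and the Vps34 inhibitor, and 410 and 417 CPM with Cobimetinib and hydroxychloroquine. ACAT2 had 162 and 169 CPM with the Vps34 inhibitor and 119 and 127 CPM with hydroxychloroquine. Levels with the Vps34 inhibitor were thus well above those of the Vps34 inhibitor alone, and those with hydroxychloroquine within the range of hydroxychloroquine alone for ACAT2. Against the same autophagy inhibitor alone, Cobimetinib with the Vps34 inhibitor raised 11 sterol enzymes, where 2.04% of genes were higher, and Cobimetinib with hydroxychloroquine 1, TM7SF2. Replicate 1 of Cobimetinib with the Vps34 inhibitor was the shallowest PANC-1 library (1668713 counts), and whether Cobimetinib differs from the other drugs in this was not tested. In AsPC-1 the medians ran from -0.46 to 0.12, and 0.523% of genes were lower per drug. MSMO1 was called lower with Sorafenib, Dabrafenib, GDC-0879 and Cobimetinib (-0.74 to -0.86), NSDHL with Cobimetinib (-1.26 ± 0.29) and FASN with Ulixertinib (-1.5 ± 0.36).

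**Figure D3:**
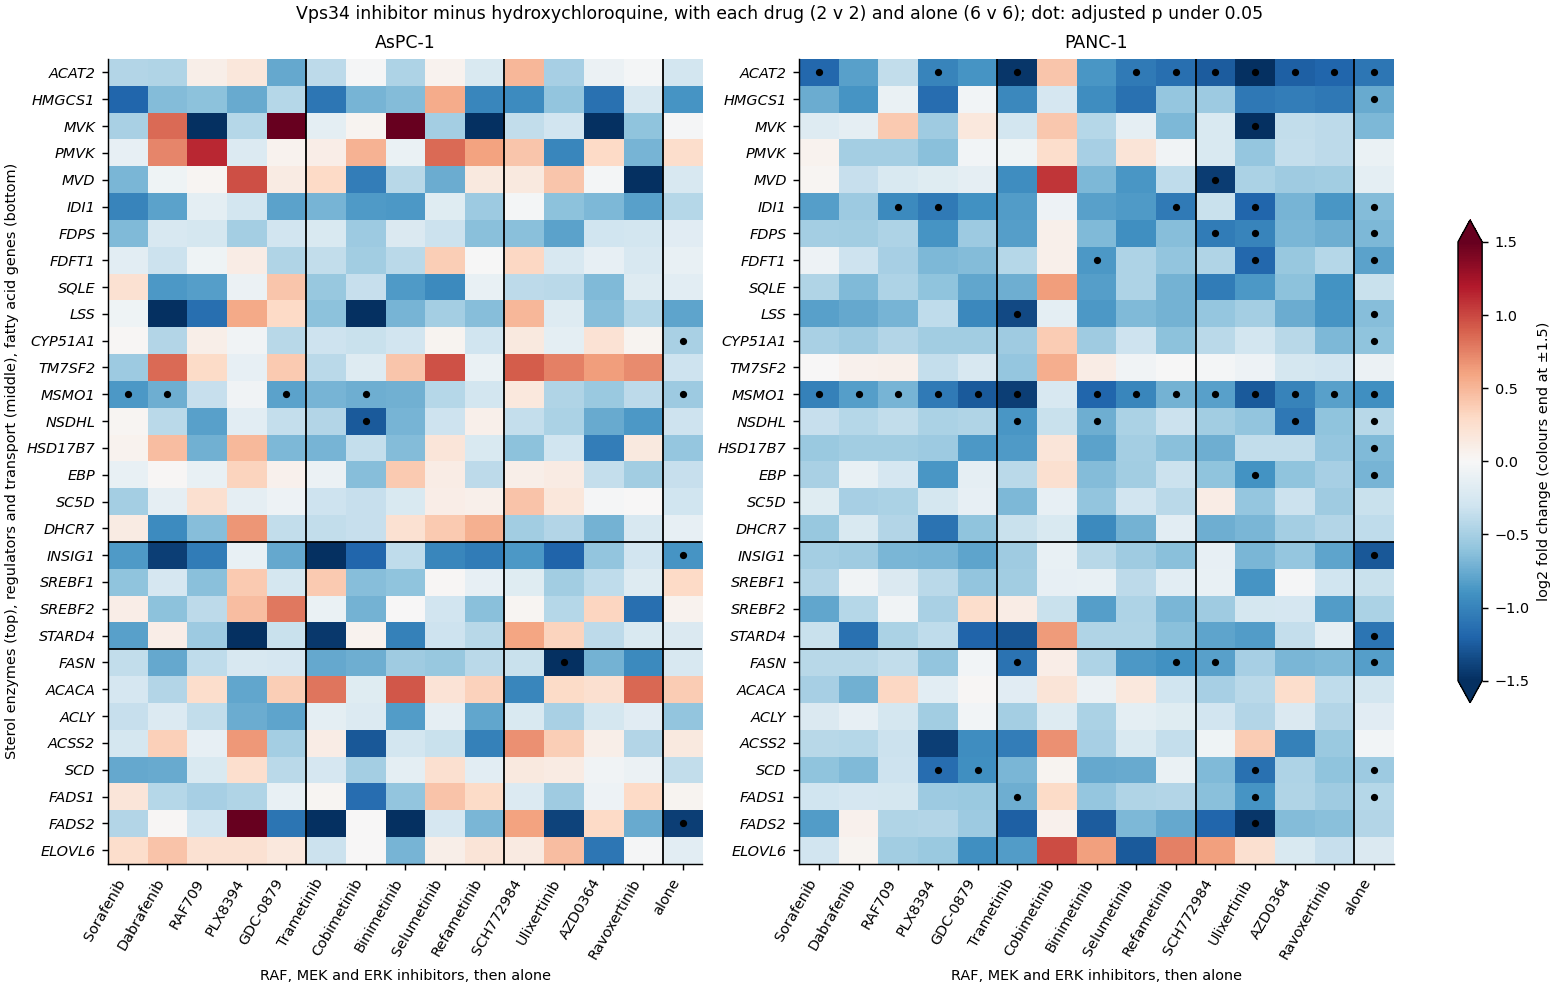
Log2 fold change of the Vps34 inhibitor against hydroxychloroquine for each member with each drug (2 against 2 libraries) and alone (last column, 6 against 6), AsPC-1 on the left and PANC-1 on the right. Blue is lower with the Vps34 inhibitor, colours end at ±1.5, and dots mark an adjusted p under 0.05. In PANC-1 MSMO1 is dotted in every column except Cobimetinib.

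Summed levels show the same arrangement per library. In PANC-1 the 18 sterol enzymes together had 983 to 1126 CPM with the Vps34 inhibitor alone, against 1437 to 1692 CPM with hydroxychloroquine alone. With ERK inhibitors they had 947 to 1530 CPM with the Vps34 inhibitor (median 1392) and 1671 to 2394 CPM with hydroxychloroquine (median 2230). In AsPC-1 they had 791 to 1188 CPM (median 981) with ERK inhibitors and the Vps34 inhibitor and 1127 to 1352 CPM (median 1225) with ERK inhibitors and hydroxychloroquine, and all 16 libraries lay above the alone libraries of the same autophagy inhibitor. The 8 fatty acid genes together had 463 to 645 CPM with ERK inhibitors and the Vps34 inhibitor in AsPC-1, against 215 to 341 CPM with the Vps34 inhibitor alone. By the medians, SCD made up most of both sums. The fatty acid genes apart from SCD moved little with ERK inhibitors in AsPC-1, as given above.

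**Figure D4:**
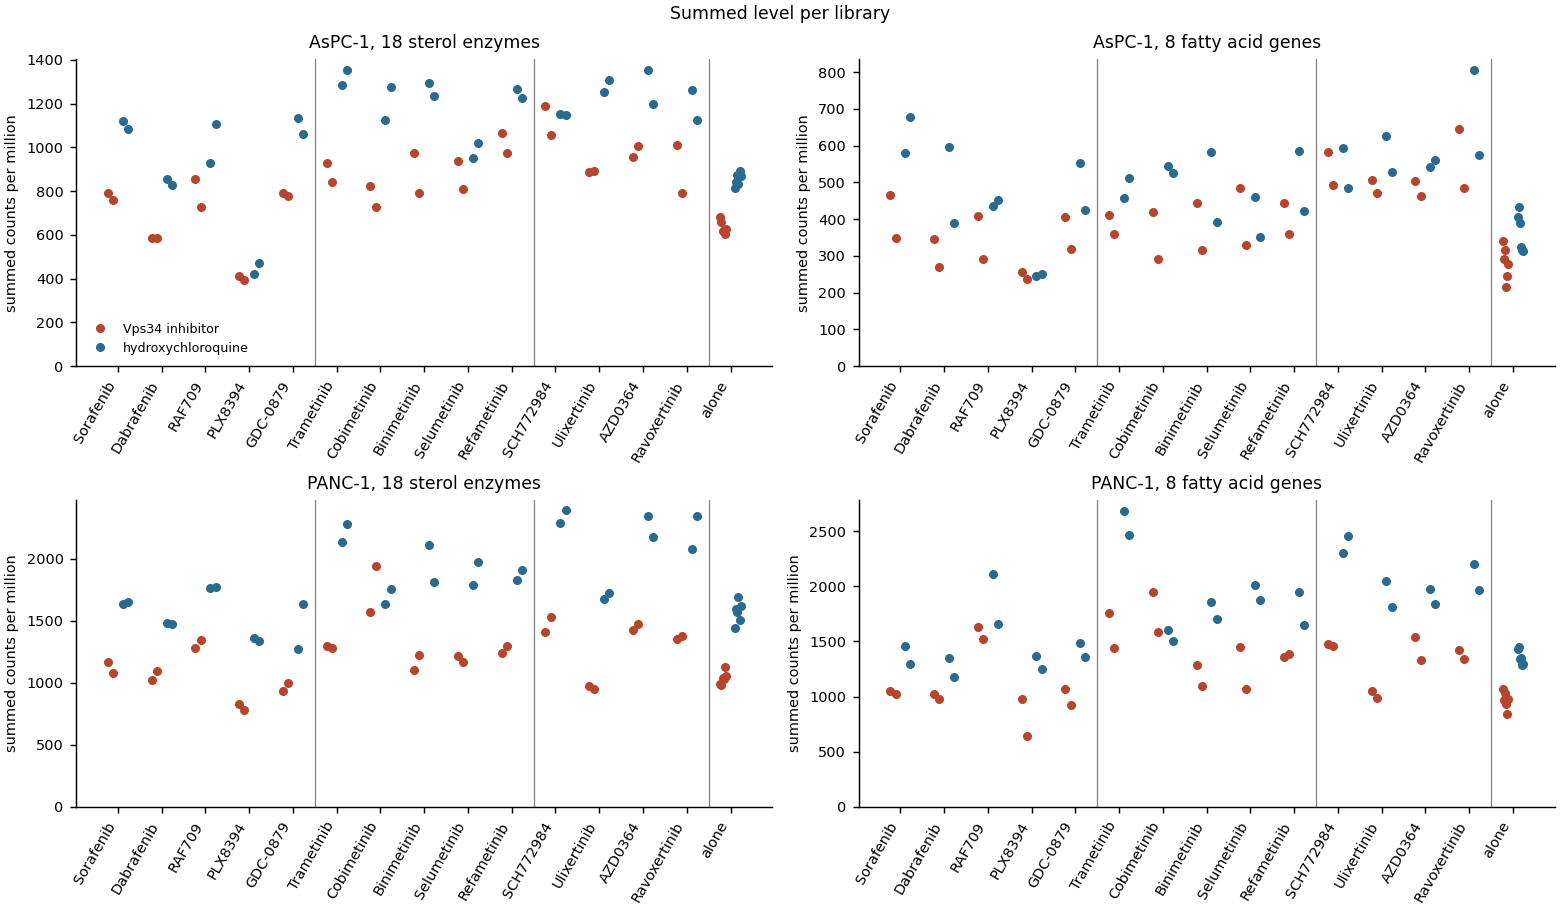
Summed CPM (vertical axis, from 0) of the 18 sterol enzymes (left) and the 8 fatty acid genes (right) in every library, AsPC-1 above and PANC-1 below, by drug with alone last. Red points are libraries with the Vps34 inhibitor and blue ones with hydroxychloroquine. The PLX8394 libraries are the lowest of AsPC-1 on the left, at 394 to 473 CPM, and in PANC-1 Cobimetinib is the drug whose red points reach the blue ones.

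The lines were compared by the difference of the same contrast, AsPC-1 minus PANC-1, in a fit of both. Their baseline levels cannot be told apart from the plates, whose codes differ between the lines. As values only, FADS1 had 13.4 to 28.2 CPM in AsPC-1 and 367 to 571 CPM in PANC-1 with the Vps34 inhibitor alone. For the Vps34 inhibitor against hydroxychloroquine alone, ACAT2 and FDFT1 fell less in AsPC-1 (differences 0.81 ± 0.22, adjusted p = 0.024, and 0.68 ± 0.15, 0.0024), where 2.51% of genes differed. Under MEK or ERK inhibitors, where 11.1% of genes differed between the lines, 8 members did. They were ACAT2 (0.93 ± 0.12), FDFT1 (0.43 ± 0.08), TM7SF2 (0.49 ± 0.14), MSMO1 (0.50 ± 0.09), SC5D (0.38 ± 0.10), ACACA (0.43 ± 0.15), SCD (0.51 ± 0.10) and FADS1 (0.34 ± 0.12), in each of which the fold change was more negative in PANC-1. With MEK inhibitors TM7SF2 (0.72 ± 0.16), MSMO1 (0.53 ± 0.10), HSD17B7 (0.63 ± 0.17), SC5D (0.58 ± 0.11) and INSIG1 (1.28 ± 0.17, adjusted p = 8.8e-09) rose more in AsPC-1, and FADS1 (-0.42 ± 0.13) rose in PANC-1 only, where 11.4% of genes differed. HSD17B7 has a near-identical pseudogene, HSD17B7P2, so its counts may be split. With ERK inhibitors FDFT1 (0.32 ± 0.10), TM7SF2 (0.79 ± 0.17), MSMO1 (0.69 ± 0.10), SC5D (0.65 ± 0.12), INSIG1 (1.32 ± 0.18, 1.2e-08) and SREBF1 (0.67 ± 0.19) rose more in AsPC-1 and FASN (-0.51 ± 0.15) more in PANC-1, where 13.9% of genes differed. With RAF inhibitors TM7SF2 did (0.59 ± 0.16), where 1.68% of genes differed. SCD did not differ past the threshold with MEK or ERK inhibitors.

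**Figure D5:**
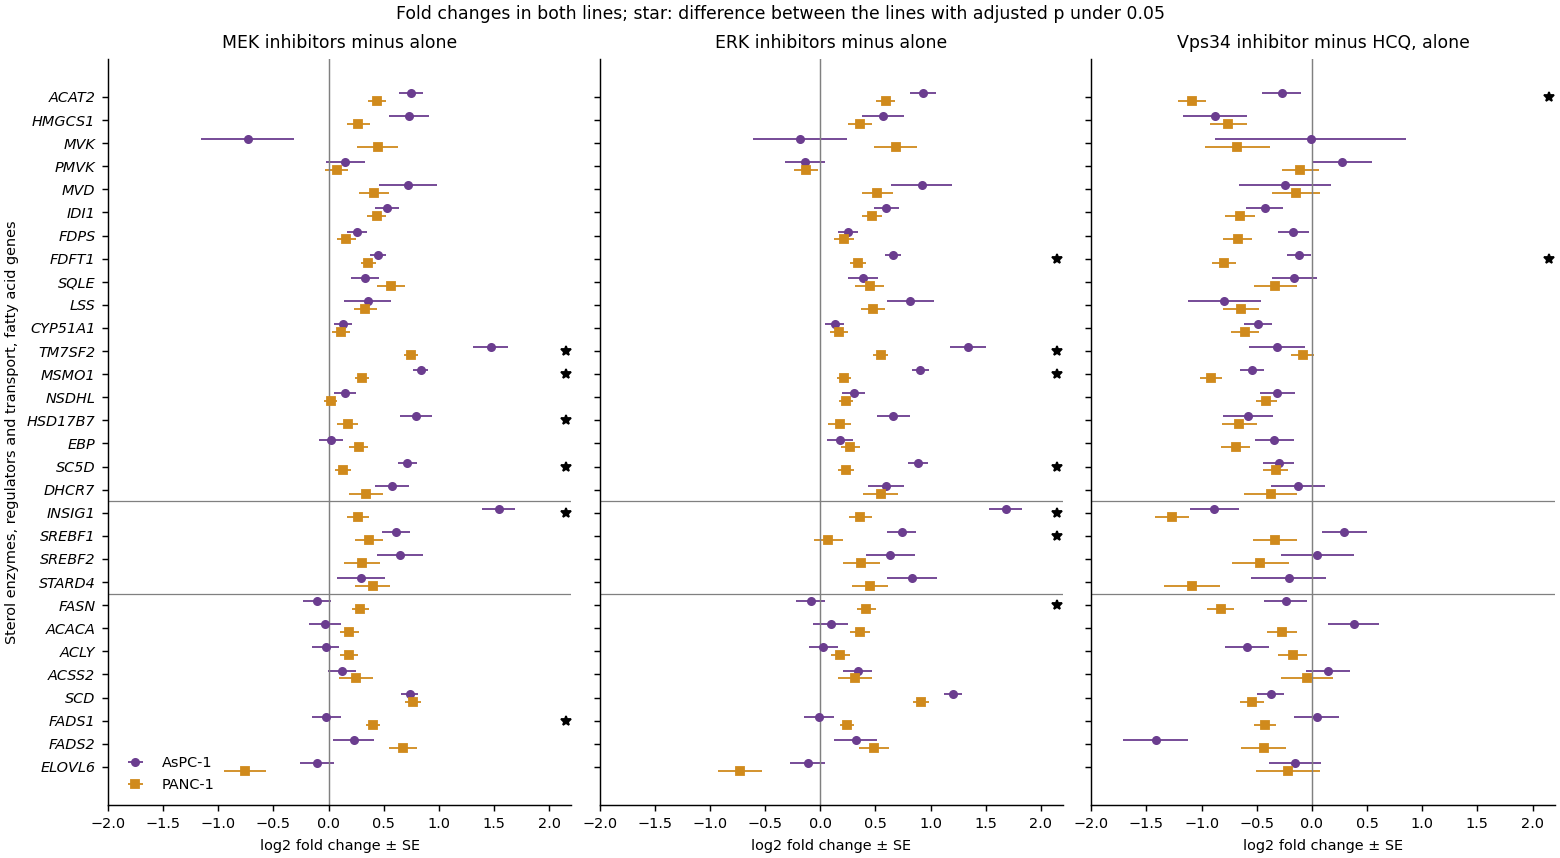
Log2 fold change ± SE of each member in AsPC-1 (purple circles) and PANC-1 (orange squares) with MEK inhibitors against alone (left), with ERK inhibitors against alone (middle) and with the Vps34 inhibitor against hydroxychloroquine alone (right). Stars mark a difference between the lines with an adjusted p under 0.05. INSIG1, TM7SF2, MSMO1 and SC5D are starred with both drug classes, with the purple circle to the right.

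Other genes of the 2 pathways were read from lists of 25 genes of sterol handling and 29 of fatty acid handling, of which 23 and 28 are in the table. Of the 23 sterol handling genes tested in AsPC-1, 7 were higher and 1 lower with each of MEK and ERK inhibitors, where 12.9% and 13.7% of all genes were higher and 16.1% and 17.4% lower. The higher ones were led by NPC2, which carries cholesterol out of lysosomes (0.54 ± 0.08 and 0.69 ± 0.09), and ERG28, a scaffold of the demethylation complex (0.66 ± 0.10 and 0.67 ± 0.11), and SOAT1, which esterifies cholesterol, was lower (-0.85 ± 0.27 and -0.79 ± 0.28). In PANC-1 7 and 8 of 22 tested were higher and none lower, again led by ERG28 and NPC2, where 7.9% and 5.45% of all genes were higher. Of the fatty acid handling genes, 4 were higher and 2 lower with MEK inhibitors in AsPC-1 (23 tested) and 6 and 2 in PANC-1 (25 tested). With ERK inhibitors 3 were higher and 2 lower in AsPC-1 and 4 and 2 in PANC-1. Of all genes in PANC-1, 7.9% were higher and 10.6% lower with MEK inhibitors, and 5.45% and 8.68% with ERK inhibitors. Among them SLC25A1, the citrate carrier, was higher in both lines (0.47 ± 0.09 and 0.31 ± 0.08), ACSL5, an acyl-CoA synthetase, was lower in AsPC-1 (-1.04 ± 0.08) and ELOVL2 in PANC-1 (-1.10 ± 0.11). With the Vps34 inhibitor under MEK or ERK inhibitors, 5 sterol handling genes were higher and 4 lower in AsPC-1, where 10.6% and 12.8% of all genes were. Among the higher ones were NR1H3, the sterol sensor LXR-alpha (0.82 ± 0.09), ABCA1 (1.15 ± 0.32) and ABCG1 (1.19 ± 0.36). The lower ones are not named here, and whether LXR-alpha was active was not tested. ABCG1 was named after its value was seen. In PANC-1 2 were higher and 6 lower, where 6.33% and 7.16% of all genes were, among the lower ones TMEM97 (-0.79 ± 0.07).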

How the data were processed

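RNA of 136 PLATE-Seq libraries (68 per line) was quantified by the authors with kallisto 0.44.0 against GRCh38, per the submitters' processing notes. The deposited table holds whole-number counts per gene symbol. How transcripts were summed to genes, how strand was used and whether duplicates were removed are steps not given in the sources used here. Both members and gene lists were chosen with earlier results of these data known. CPM values were computed from library totals. For each line 1 model over all 68 libraries was fitted in edgeR 4.0.16 (R 4.3.3; TMM scaling, filterByExpr, robust quasi-likelihood test, 37 residual degrees of freedom) with 30 treatments and the plate (A or B, from the titles) as a block, and p-values were adjusted by Benjamini-Hochberg over all genes tested, with a threshold of 0.05. Differences between lines came from a joint fit of 13960 genes. Same-plate deviations of 435 treatment pairs correlated weakly (median 0.036 in AsPC-1 and 0.060 in PANC-1). The method was also run on counts simulated with the same spread for all genes, no plate effect and no differences between drugs of a class. Its outcome is not given here, and such counts cannot test the plate block or differences between drugs. Alternatives included DESeq2 1.42.0, other scaling, filter and block settings, and leaving out libraries and drugs. Comparisons within single drugs and within a class were chosen after seeing the data. All 30 members could be named. Library values were given for up to 3 sterol enzymes, 1 regulator and 2 fatty acid genes with the smallest adjusted p in each comparison, and up to 3 called genes per direction from each companion list. Library values of HMGCS1 and of members under single drugs were added after their values were seen. Results of some genes are not reported here. Gene positions are from GENCODE v29, promoters from RefSeq (GRCh38.p14).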

Additional observations from a re-analysis of the deposited data

Results flagged for a closer look

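In 5 of 120 groups of 6 libraries, 1 library of a member lay far from the other 5, where chance alone marks about 1 in 20 groups. In AsPC-1 ACAT2 had 50.4 CPM in replicate 1 of hydroxychloroquine alone, against 26.5 to 33.8 CPM in the other 5, and STARD4 had 12.6 CPM in replicate 4 of the Vps34 inhibitor alone, against 3.02 to 6.37 CPM. In PANC-1, with the Vps34 inhibitor alone, MVK had 1.67 CPM in replicate 2 (4.77 to 6.21 CPM in the others), SQLE 82.5 CPM in replicate 3 (52.5 to 54.6 CPM) and EBP 55.6 CPM in replicate 5 (27.7 to 37.8 CPM).

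The effect of the same treatment differed between AsPC-1 and PANC-1 in 24 results on 12 members (log2 difference, AsPC-1 minus PANC-1). For the Vps34 inhibitor against hydroxychloroquine alone these were ACAT2 (0.81) and FDFT1 (0.68). Under MEK or ERK inhibitors they were ACAT2 (0.93), FDFT1 (0.43), TM7SF2 (0.49), MSMO1 (0.50), SC5D (0.38), ACACA (0.43), SCD (0.51) and FADS1 (0.34). With MEK inhibitors against alone they were TM7SF2 (0.72), MSMO1 (0.53), HSD17B7 (0.63), SC5D (0.58), INSIG1 (1.28) and FADS1 (-0.42). With ERK inhibitors they were FDFT1 (0.32), TM7SF2 (0.79), MSMO1 (0.69), SC5D (0.65), INSIG1 (1.32), SREBF1 (0.67) and FASN (-0.51), and with RAF inhibitors TM7SF2 (0.59).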

How the results depend on the processing

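Of 572 recomputed values of 46 counts, 481 stayed within 1.5 times the reported count. Of 3155 recomputed fold changes of single members none changed direction and 400 no longer passed the threshold, 169 of them within single plates. The fits within single plates had fewer libraries and also took the drugs of a class as replicates, so these 2 changes cannot be told apart. Within plate A and plate B the counts were, in AsPC-1, 0 and 0 sterol enzymes (2 reported) and 0 and 0 fatty acid genes (1) lower with the Vps34 inhibitor alone, 2 and 5 sterol enzymes (8) lower under MEK or ERK inhibitors, with 1 fatty acid gene (3) in plate B, 9 and 7 sterol enzymes (14) and 1 and 1 fatty acid genes (2) higher with ERK inhibitors, 0 and 0 of both with RAF inhibitors (1 each), and 0 and 0 members for ERK against MEK inhibitors (1). In PANC-1 they were 0 and 0 sterol enzymes (11) and 0 and 0 fatty acid genes (3) for the Vps34 inhibitor alone, 1 and 3 fatty acid genes (5) under MEK or ERK inhibitors, 1 and 3 sterol enzymes (9) and 2 and 1 fatty acid genes (4) with MEK inhibitors, 2 and 3 (14) and 3 and 1 (5) with ERK inhibitors, and 0 and 0 for ERK against MEK inhibitors (1).

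With the drugs of a class as replicates, 0 sterol enzymes and 2 fatty acid genes in AsPC-1 were lower with the Vps34 inhibitor alone than with hydroxychloroquine alone. In PANC-1 1 fatty acid gene was, and ERK against MEK inhibitors called 0 there. DESeq2 called 3 fatty acid genes lower with the Vps34 inhibitor alone in AsPC-1 (2 with its size factors in edgeR) and 2 members for ERK against MEK inhibitors in each line. Without a filter on low counts, 1 fatty acid gene was higher with ERK inhibitors in AsPC-1. The cause was not tested.

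Leaving out 1 library or drug gave, in AsPC-1, 1 to 3 sterol enzymes and 1 to 2 fatty acid genes lower with the Vps34 inhibitor alone, 1 to 2 fatty acid genes higher with ERK inhibitors, 0 to 4 sterol enzymes higher with RAF inhibitors and 1 to 2 members for ERK against MEK inhibitors. In PANC-1 it gave 8 to 15 sterol enzymes higher with ERK inhibitors and 0 to 3 members for ERK against MEK inhibitors. Leaving out replicate 1 or 2 of all combinations leaves 1 library per combination, whose spread is then assumed to be that of the other groups. Sterol calls over single drugs were then 47 to 54 (77 reported) in AsPC-1 and 17 to 18 (51) in PANC-1, with 10 to 19 fatty acid calls (29) in PANC-1. Within 1 autophagy inhibitor they were 45 to 49 (100) and 13 to 14 (51), with 17 to 19 (28) and 15 to 18 (30) fatty acid calls. PLX8394 lowered 2 to 5 sterol enzymes (10) against alone and 6 to 8 (12) against other RAF inhibitors in AsPC-1, and Ulixertinib 4 (10) against other ERK inhibitors in PANC-1.

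Without the replicate block, which stands for the plate, 15 sterol enzymes were lower with the Vps34 inhibitor under MEK or ERK inhibitors in PANC-1 (15 with it), 9 with the Vps34 inhibitor alone (11 with it), and 11 were higher with MEK inhibitors in AsPC-1 (12 with it). Differences between the lines without the block called 1 fatty acid gene under MEK or ERK inhibitors (3 with it), 0 with MEK (1) and 0 with ERK inhibitors (1) and 0 sterol enzymes with RAF inhibitors (1). DESeq2 size factors gave 1 fatty acid gene under MEK or ERK inhibitors and 2 with ERK inhibitors, and no filter on low counts gave 1 under MEK or ERK inhibitors and 0 sterol enzymes with RAF inhibitors. DESeq2 itself was not run on the joint fit of both lines or between autophagy inhibitors under single drugs.

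Of 120 mean levels in CPM, all 120 moved by less than 1 SD with TMM-scaled library sizes, and 100 moved by more than that when totals left out mitochondrial genes, which raises every level of a library alike.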
